A study of Homo sapiens with 15 samples.

Results

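A set of 10 epithelial keratin genes was followed across every group of the series, namely the luminal keratins KRT7, KRT8, KRT18 and KRT19, the basal keratins KRT5, KRT15 and KRT17, and the keratins KRT23, KRT80 and KRT81. The members were taken by gene symbol, and all 10 had a row among the 60664 genes of the count table. RNA came from KPL4, an established human breast adenocarcinoma line in which HER2 is amplified, and was sequenced as stranded, ribosome-depleted total RNA from 15 libraries, 3 in each of 5 groups. LY500307 libraries were ERβ knockout cells with exogenous ERβ, first held for 72 h without phenol red in 1% charcoal-treated serum, and then exposed for 24 h to 200 nM of the ERβ agonist LY500307. Vehicle libraries were the same cells given DMSO in the same medium. Add-back libraries were ERβ knockout cells with exogenous ERβ in maintenance medium with 7% serum, insulin and hydrocortisone. Knockout libraries were ERβ knockout cells, and control libraries were wild-type KPL4 cells with endogenous ERβ, both in the maintenance medium. The labels do not say whether the knockout was 1 clone, how ERβ was put back, or whether replicates were separate cultures, so p-values measure the spread between these samples, which may be technical. In vehicle and LY500307 libraries the medium and DMSO differ together from the untreated add-back libraries, and their effects cannot be told apart.

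Keratins are the intermediate filament proteins of epithelia. A type II keratin pairs with a type I keratin, and the pair assembles into the filament, so neither partner forms filaments alone. In the breast, KRT8 and KRT7 (type II) with KRT18 and KRT19 (type I) mark luminal cells. KRT5 (type II), its partner KRT14 (type I) and KRT17 (type I) mark basal and myoepithelial cells. KRT15 (type I) is grouped here with the basal keratins, but its changes were not tied to a cell type. KRT81 and its near copy KRT86 are type II keratins of the hair shaft, KRT80 is a type II epithelial keratin, and KRT23 is a type I keratin. The type II genes lie in a cluster on chromosome 12 and the type I genes on chromosome 17, except KRT18, which lies beside KRT8.

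The coding sequence is conserved to a varying degree along the central rod of the protein, and this bears on the counting of near copies. The KRT8 exon printed here is also part of a short KRT8 transcript described further on. The 5 lines that follow give one coding exon of 96 bases in KRT8 and its equivalent in the other expressed type II members and in KRT86, from the transcripts of GENCODE 29 on GRCh38, 5′ to 3′ on the coding strand, with capitals at bases that differ from KRT8.
KRT8: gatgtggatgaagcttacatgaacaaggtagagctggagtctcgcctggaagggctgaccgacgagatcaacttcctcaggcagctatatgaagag
KRT7: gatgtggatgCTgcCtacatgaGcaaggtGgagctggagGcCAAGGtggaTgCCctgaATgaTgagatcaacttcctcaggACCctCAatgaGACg
KRT80: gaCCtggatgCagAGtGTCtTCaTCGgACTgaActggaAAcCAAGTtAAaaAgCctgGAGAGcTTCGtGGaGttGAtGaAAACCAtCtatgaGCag
KRT81: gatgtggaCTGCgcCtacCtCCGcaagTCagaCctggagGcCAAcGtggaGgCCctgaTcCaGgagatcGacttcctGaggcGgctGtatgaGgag
KRT86: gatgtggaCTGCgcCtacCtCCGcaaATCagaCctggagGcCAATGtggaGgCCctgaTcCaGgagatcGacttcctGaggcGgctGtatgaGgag
These exons are exon 5 of KRT8-201 (chr12:52900588-52900683, minus strand), exon 4 of KRT7-201 (chr12:52238680-52238775, plus strand), exon 4 of KRT80-201 (chr12:52180513-52180608, minus strand), exon 4 of KRT81-201 (chr12:52288361-52288456, minus strand) and exon 4 of KRT86-201 (chr12:52304932-52305027, plus strand). KRT81 and KRT86 differed at 2 of the 96 bases, KRT8 and KRT7 at 25, and KRT8 and KRT80 at 52.
The equivalent coding exon of 157 bases in the type I members is given in the same way, with capitals at bases that differ from KRT18.
KRT18: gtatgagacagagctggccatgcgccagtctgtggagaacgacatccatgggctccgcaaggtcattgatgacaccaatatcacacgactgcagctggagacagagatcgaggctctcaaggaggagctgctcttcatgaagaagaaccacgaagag
KRT19: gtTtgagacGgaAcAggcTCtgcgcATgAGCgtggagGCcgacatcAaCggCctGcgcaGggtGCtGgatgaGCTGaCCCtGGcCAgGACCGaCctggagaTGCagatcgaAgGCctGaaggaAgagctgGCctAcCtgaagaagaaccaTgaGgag
KRT15: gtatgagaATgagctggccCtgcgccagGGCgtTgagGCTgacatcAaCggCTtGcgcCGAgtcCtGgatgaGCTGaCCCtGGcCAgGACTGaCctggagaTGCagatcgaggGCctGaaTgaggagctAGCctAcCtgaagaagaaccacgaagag
These are exon 3 of KRT18-201 (chr12:52950750-52950906, plus strand), of KRT19-201 (chr17:41524843-41524999, minus strand) and of KRT15-201 (chr17:41516808-41516964, minus strand). KRT19 and KRT15, which are neighbours on chromosome 17, were identical at 86.0% of these bases, and KRT18 was identical to KRT19 at 66.9%.

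Depth ran from 12614074 expected counts in knockout replicate 2 to 19390378 in vehicle replicate 2, and levels are given as CPM (expected counts scaled to a common library size by TMM). ESR2, which encodes ERβ, had 45.0, 44.2 and 42.4 CPM with LY500307, 41.7, 45.9 and 48.0 CPM with vehicle, 34.1, 33.8 and 30.6 CPM in add-back cells, 5.77, 3.04 and 4.41 CPM in knockout cells and 6.44, 4.79 and 6.07 CPM in control cells. The add-back label was thus matched by its RNA, but knockout and control libraries overlapped (adjusted p = 0.0796, edgeR), so ESR2 RNA does not check the knockout label. ESR2 RNA lay above the control level in add-back against control (log2 2.51) and was higher in vehicle against add-back (log2 0.46). Both had an adjusted p under 0.05 with edgeR. As a check of the cell type, EPCAM, an epithelial adhesion molecule, averaged 349, 361, 348, 342 and 385 CPM in the LY500307, vehicle, add-back, knockout and control groups. The 8 markers of immune, endothelial and stromal cells summed to between 5.37 and 21.0 CPM in a library.

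Enough reads for a test were found for 7 of the 10 members, which were KRT7, KRT8, KRT18, KRT19, KRT15, KRT80 and KRT81. KRT5, the main type II keratin of basal cells, had 0 reads in all 15 libraries, which allows up to 0.160 to 0.228 CPM depending on the library (3 counts, counting error only). KRT17 had 1 read, in LY500307 replicate 3. KRT23 had 38 reads over all 15 libraries and at most 8 in one of them, LY500307 replicate 3. KRT14, the partner of KRT5, averaged 0 CPM in every group. Of the keratins grouped as basal, KRT15 alone was therefore represented, without the KRT5 and KRT14 pair. Of the 45 other protein-coding keratin genes, 6 were tested, and KRT4 was the most abundant of these.

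Per transcript length, the luminal keratins made up most of the keratin RNA in every library. Levels were expressed as TPM, counts divided by transcript length and scaled to a common sum, and each member was given as a share of the summed TPM of the 10 members. KRT8 held 36.9% ± 0.122, 38.1% ± 0.0515, 33.3% ± 0.467, 25.7% ± 0.820 and 32.9% ± 1.57 of that sum in the LY500307, vehicle, add-back, knockout and control groups (SD, n = 3 each). KRT7 held 26.0% ± 0.150, 25.7% ± 0.372, 31.3% ± 0.549, 37.0% ± 0.318 and 31.4% ± 0.842 in the same groups. KRT7 was thus the most abundant member in knockout cells and KRT8 in the others, although the shares of KRT8 and KRT7 overlapped in control libraries. KRT18 held between 21.9% (knockout) and 28.9% (control) of the sum, and KRT19 up to 8.08% (LY500307 and knockout) and as little as 3.70% (control).
The minor members were KRT81, KRT80 and KRT15. KRT81 held 0.687% ± 0.0625 with LY500307, 0.616% ± 0.0370 with vehicle, 1.79% ± 0.0651 in add-back, 5.58% ± 0.468 in knockout and 2.00% ± 0.0248 in control cells. KRT15 held 0.999% ± 0.0329 with LY500307, 0.909% ± 0.0755 with vehicle, 0.346% ± 0.0781 in add-back, 0.666% ± 0.0390 in knockout and 0.153% ± 0.0243 in control cells. KRT15 ranked last of the 7 in the groups in maintenance medium. It ranked above KRT81 and KRT80, which overlapped, in the LY500307 and vehicle groups, but below both with the longest annotated transcripts (0.656% with LY500307 and 0.576% with vehicle, where KRT80 held 0.931% and 1.06%). The summed TPM of the members was 4709 ± 125 with LY500307, 4623 ± 87.2 with vehicle, 4352 ± 196 in add-back, 3966 ± 67.3 in knockout and 3978 ± 82.5 in control cells. With the longest annotated transcript of each gene the sums were 3989 ± 120 with LY500307, 3639 ± 108 with vehicle, 3935 ± 141 in add-back, 3658 ± 161 in knockout and 3162 ± 76.0 in control cells, so the order of vehicle and add-back cells turned and all knockout libraries lay above all control libraries.
The order at the top also depends on the length used. With the longest transcripts, KRT7 held 33.7% in add-back and 37.3% in knockout cells and ranked first there. KRT18 ranked first on that scale with LY500307 (29.4%), with vehicle (32.9%) and in control cells (34.0%). The ratio of KRT7 to KRT8 was highest in knockout cells on both scales, at 1.44 ± 0.0521 with transcript lengths and 1.82 ± 0.0301 with the longest transcripts, against 0.957 ± 0.0711 and 1.19 ± 0.0571 in control cells. All 3 knockout libraries lay above all 3 control libraries in both cases.

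**Figure D1:**
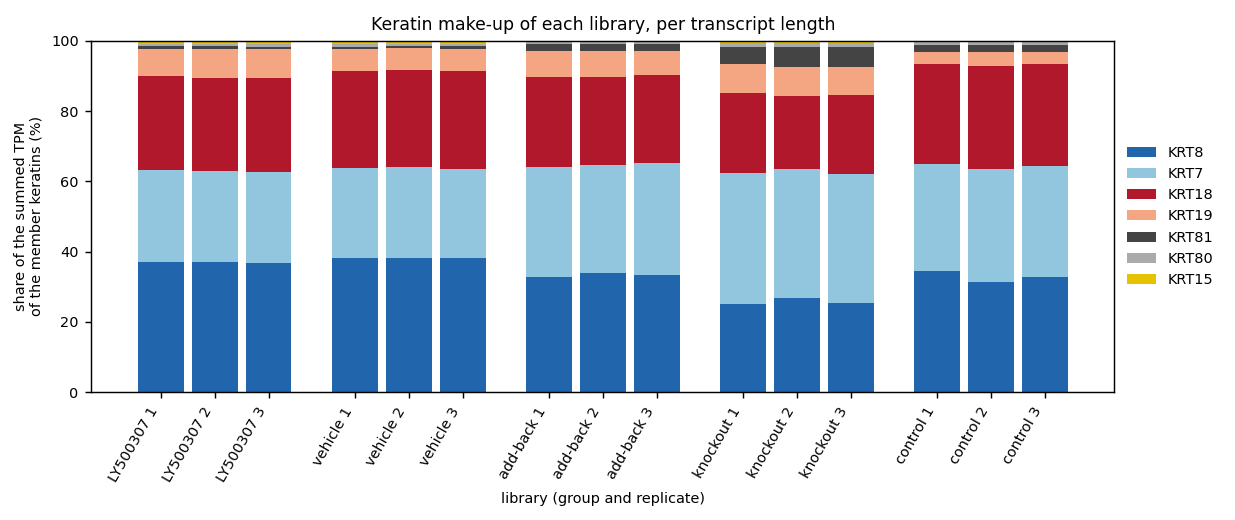
Share of each member keratin in the summed TPM of the members (vertical axis, percent), 1 stacked bar per library, ordered by group and replicate. Knockout libraries carried the widest KRT7 and KRT81 bands, at 37.0% and 5.58% on average, and control libraries the narrowest KRT19 band, at 3.70%.

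The comparison of knockout with control cells addressed the loss of ERβ. Of the 7 tested members, KRT7, KRT19, KRT15 and KRT81 rose and KRT8 and KRT18 fell, while KRT80 did not pass the test. These are 6 calls in a comparison in which 46.0% of all 19516 tested genes were called (Benjamini-Hochberg adjusted p under 0.05, edgeR quasi-likelihood test), 23.4% higher and 22.6% lower. The median log2 fold change of the 4 luminal keratins was 0.13, against -0.01 over all genes tested, and it turned to -0.18 with offsets that remove each library's trend on GC content and length. The comparison of add-back with knockout cells addressed exogenous ERβ, with ESR2 RNA above the control level. KRT8 and KRT18 rose and KRT15, KRT80 and KRT81 fell, so 5 of the 7 tested members were called where 19.6% of all genes were, 10.4% higher and 9.19% lower. The luminal median was 0.20, against -0.01 over all genes tested, for which 53.1% of calls were higher with TMM scaling, 42.0% with upper-quartile scaling and 64.2% with DESeq2. Both comparisons use the same knockout libraries, so opposite signs in them are not independent observations, and the later comparisons also share add-back, control or vehicle libraries. In bulk RNA, fewer cells that express a gene and less RNA of it per cell cannot be told apart.
The comparison of LY500307 with vehicle addressed the agonist in cells with exogenous ERβ. KRT7, KRT19 and KRT15 rose, which makes 3 of 7, where 7.12% of all genes were called, 4.77% higher and 2.35% lower. The luminal median was 0.19, against -0.02 over all genes, and 0.03 with the offsets. The 1389 genes called here were 302 with the offsets, 403 and 299 without vehicle replicate 1 and 2, and 586 and 487 without LY500307 replicate 1 and 2. In add-back against control, KRT7, KRT8, KRT19 and KRT15 rose and KRT18 and KRT80 fell, which makes 6 of 7 where 45.8% of all genes were called, 23.2% higher and 22.7% lower. In vehicle against add-back, KRT18 and KRT15 rose and KRT7 and KRT81 fell, which makes 4 of 7 where 48.1% of all genes were called, 26.4% higher and 21.6% lower. In 3 of the comparisons almost as many genes were called as not, and the member counts there are to be read against that. The members were chosen with earlier results of these data known, so no member count shows that keratins changed more often than other genes.

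**Figure D2:**
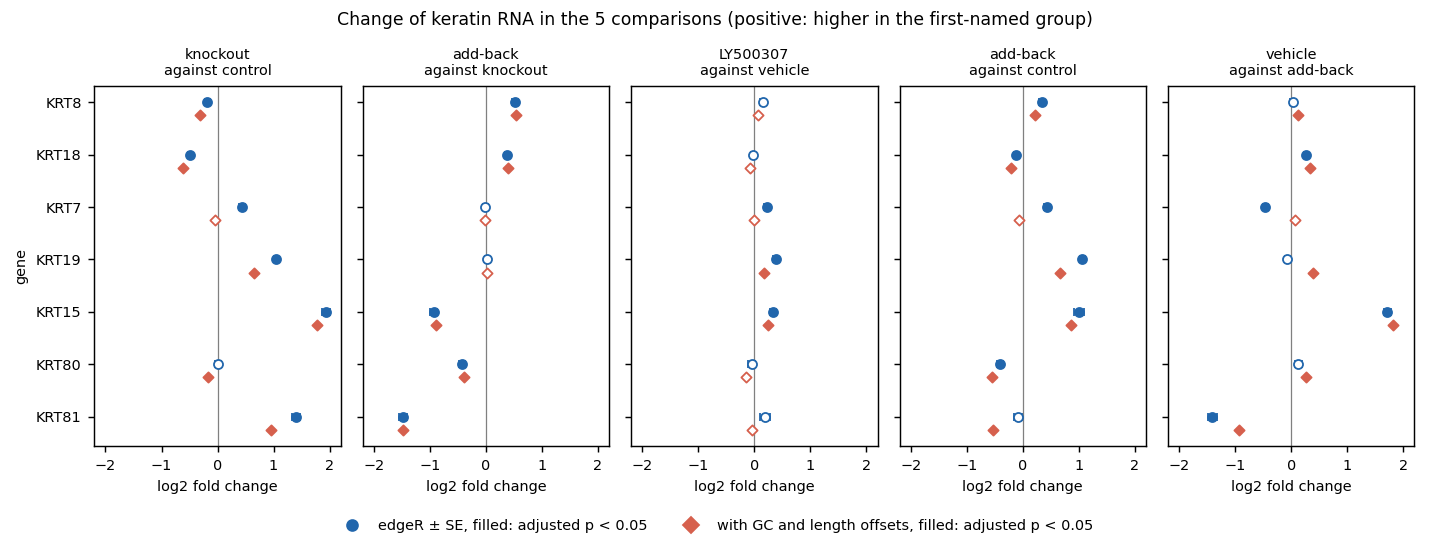
Log2 fold change (horizontal axis, positive where the first-named group was higher) of the 7 tested keratins in the 5 comparisons, from edgeR with its SE (circles) and after offsets on GC content and length (diamonds), filled where the adjusted p was under 0.05. Circles and diamonds of KRT7 part in 4 panels, with KRT7 at 0.44 and -0.04 in knockout against control, and lie together for the members in add-back against knockout.

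KRT8 (ENSG00000170421, GRCh38 chr12:52897187-52949954, minus strand) encodes the main type II keratin of simple epithelia. It had 1718, 1725 and 1645 CPM with LY500307, 1487, 1482 and 1630 CPM with vehicle, 1449, 1541 and 1523 CPM in add-back cells, 961, 1089 and 1098 CPM in knockout cells and 1239, 1167 and 1159 CPM in control cells. Knockout libraries were the lowest of the 5 groups and did not overlap control libraries, and LY500307 libraries were the highest. Its log2 fold change was -0.18 ± 0.05 (SE) in knockout against control (adjusted p = 0.00315), 0.52 ± 0.05 in add-back against knockout (adjusted p = 1.04e-07) and 0.34 ± 0.05 in add-back against control (adjusted p = 5.35e-06). In LY500307 against vehicle it was 0.15 ± 0.05 with an adjusted p of 0.0592, and in vehicle against add-back 0.03 ± 0.05 with an adjusted p of 0.657. The value in knockout against control was -0.11 without knockout replicate 1 (adjusted p = 0.0370) and -0.32 with the GC content and length offsets (adjusted p = 3.04e-06). LY500307 against vehicle was called under 8 of 17 alternatives, among them the Wald test of DESeq2 (adjusted p = 0.0237) and the fit without vehicle replicate 3 (0.21, adjusted p = 0.00734), and was 0.07 with the offsets (adjusted p = 0.523). With the offsets vehicle against add-back became a call at 0.11 (adjusted p = 0.0318).
KRT18 (ENSG00000111057, GRCh38 chr12:52948871-52952901, plus strand) encodes the type I partner of KRT8. It had 1286, 1266 and 1227 CPM with LY500307, 1252, 1289 and 1299 CPM with vehicle, 1027, 1072 and 1102 CPM in add-back cells, 845, 786 and 851 CPM in knockout cells and 1164, 1151 and 1171 CPM in control cells. Knockout libraries were again the lowest, LY500307 and vehicle libraries overlapped, and add-back libraries lay between knockout and control libraries. Its log2 fold change was -0.49 ± 0.03 in knockout against control (adjusted p = 3.04e-10), 0.37 ± 0.03 in add-back against knockout (adjusted p = 8.83e-08) and -0.02 ± 0.03 in LY500307 against vehicle (adjusted p = 0.747). In add-back against control it was -0.12 ± 0.03 (adjusted p = 0.00363), a call lost without add-back replicate 1 (-0.08, adjusted p = 0.0787), while the value was -0.22 with the offsets (adjusted p = 9.01e-06). It was 0.26 ± 0.03 in vehicle against add-back (adjusted p = 1.28e-06). Among the 21 pairs of tested members, KRT8 and KRT18 had the most alike profiles over the 5 group means, with a root mean square difference of 0.16 on the log2 CPM scale. That value used all KRT8 counts, those on a short transcript described further on among them. Over KRT8 transcripts of at least 1000 bases, KRT8 did not fall with KRT18 in knockout against control. On that count KRT8 and KRT18 moved in opposite directions in vehicle against add-back. Their annotated gene bodies overlap on opposite strands, and the use of strand in counting is not given in the sources used here, so reads in that stretch cannot be told apart.
KRT8 and KRT18 have many processed pseudogenes. The table held 51 named for KRT8 and 67 named for KRT18, which carried 2.10% to 3.33% and 0.747% to 1.88% of the summed reads of gene and pseudogenes in a library. Adding these reads to the genes changed no call of either.

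KRT7 (ENSG00000135480, GRCh38 chr12:52232520-52252186, plus strand) encodes a type II keratin of simple and glandular epithelia. It had 999, 999 and 957 CPM with LY500307, 817, 803 and 909 CPM with vehicle, 1112, 1157 and 1210 CPM in add-back cells, 1092, 1200 and 1218 CPM in knockout cells and 854, 884 and 854 CPM in control cells. Knockout and add-back libraries overlapped and lay above the other groups, and vehicle libraries overlapped control libraries. Its log2 fold change was 0.44 ± 0.05 in knockout against control (adjusted p = 1.84e-07), 0.42 ± 0.05 in add-back against control (adjusted p = 3.27e-07), 0.23 ± 0.05 in LY500307 against vehicle (adjusted p = 0.00625) and -0.46 ± 0.05 in vehicle against add-back (adjusted p = 8.30e-08). In add-back against knockout it was -0.01 ± 0.05 with an adjusted p of 0.888. The 4 calls were lost with the GC content and length offsets, where the values were -0.04, -0.06, -0.01 and 0.07 (adjusted p = 0.323, 0.132, 0.920 and 0.102). Without offsets, the main transcript KRT7-201 alone averaged 1018 ± 87.4 CPM in knockout, 1035 ± 38.0 in add-back and 673 ± 19.7 in control cells. With LY500307 and vehicle it averaged 845 ± 22.0 and 677 ± 77.2 CPM. KRT7 had the most GC-rich longest transcript of the 10 members, at 62.9%, and the part of GC content in its change was not tested further. The call with LY500307 was also lost without vehicle replicate 2 (0.20, adjusted p = 0.0551). KRT7 overlaps the antisense gene KRT7-AS, at 19.7 CPM on average.
KRT19 (ENSG00000171345, GRCh38 chr17:41523617-41528308, minus strand) encodes the smallest type I keratin. It had 326, 343 and 340 CPM with LY500307, 262, 248 and 264 CPM with vehicle, 266, 280 and 265 CPM in add-back cells, 263, 265 and 271 CPM in knockout cells and 126, 139 and 124 CPM in control cells. Control libraries were the lowest and LY500307 libraries the highest, with no overlap with another group, and the knockout, add-back and vehicle groups had means of 258 to 270 CPM. The change was 2.06-fold in knockout against control (log2 1.04 ± 0.04, adjusted p = 3.60e-13), 2.09-fold in add-back against control (log2 1.06 ± 0.04, adjusted p = 4.99e-13) and 1.30-fold in LY500307 against vehicle (log2 0.38 ± 0.04, adjusted p = 1.97e-05). It was 0.02 ± 0.04 on the log2 scale in add-back against knockout (adjusted p = 0.772) and -0.07 ± 0.04 in vehicle against add-back (adjusted p = 0.186). The add-back mean of 270 CPM was no nearer to the control mean of 129 CPM than the knockout mean of 266 CPM was. With the GC content and length offsets the first 3 values were 0.64, 0.66 and 0.17 (adjusted p = 1.00e-10, 1.06e-10 and 0.0316), and vehicle against add-back became a call at 0.39 (adjusted p = 9.48e-08). Vehicle against add-back was a call in the other direction without vehicle replicate 3 (-0.12, adjusted p = 0.0468) and with upper-quartile scaling (-0.11, adjusted p = 0.0382).

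**Figure D3:**
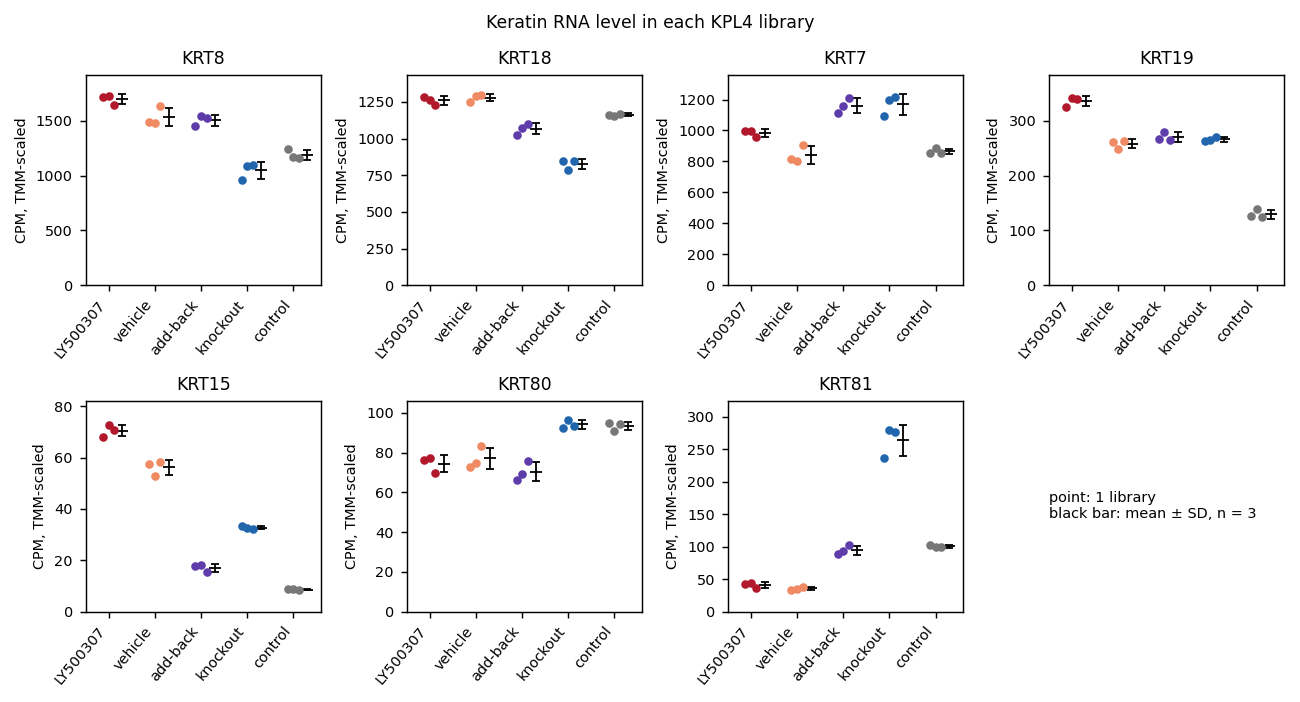
Level of the 7 tested keratins (vertical axis, TMM-scaled CPM) in each library, by group, with the mean and SD of 3 libraries in black. KRT81 stood at 236 to 279 CPM in knockout libraries and at most 102 CPM elsewhere, and KRT15 at 52.8 to 72.5 CPM in LY500307 and vehicle libraries and at most 33.3 CPM elsewhere.

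The transcript table placed a part of the KRT8 and KRT7 reads on short entries inside the genes, and this part differed between groups. KRT8-211 is a retained-intron transcript of 770 bases (chr12:52899794-52902204) that shares 638 bases with exons 3 to 6 of KRT8-201, the exon 5 printed above among them. It held 18.2%, 17.5% and 18.0% of the KRT8 counts with LY500307, 29.7%, 32.2% and 23.1% with vehicle, 7.66%, 9.81% and 11.7% in add-back cells, 13.3%, 8.72% and 5.46% in knockout cells and 27.6%, 20.1% and 26.8% in control cells. KRT7-214, of 398 bases (chr12:52238705-52245448), lies in exons 4 to 7 of KRT7-201 and held 9.66%, 9.06% and 9.46% of the KRT7 counts with LY500307, 15.7%, 17.8% and 10.7% with vehicle, 5.33%, 5.42% and 6.19% in add-back cells, 10.0%, 6.11% and 6.04% in knockout cells and 15.5%, 14.5% and 16.2% in control cells. Both shares were higher in every control and vehicle library than in every add-back and knockout library. In both genes vehicle replicate 3 and control replicate 2 had the lowest share of their group and knockout replicate 1 the highest. Over all genes with a protein-coding transcript, entries under 1000 bases held 12.8% to 13.6% of the counts on average in each group.
Counting KRT8 over transcripts of at least 1000 bases, an alternative chosen after the transcript table was seen, moved 4 of its 5 values by over 1.5 times or past the threshold. Knockout against control was then 0.10 (adjusted p = 0.275), LY500307 against vehicle 0.34 (adjusted p = 0.00767) and vehicle against add-back -0.30 (adjusted p = 0.00171). Add-back against control was 0.61 (adjusted p = 1.11e-06), against 0.34 for the whole gene. Add-back against knockout was 0.51 (adjusted p = 3.85e-05). Whether KRT8 RNA was lower in knockout than in control cells thus depends on how reads on KRT8-211 are treated. For KRT18 the main transcript KRT18-201 held 96.1% to 97.7% of the counts on average in each group, and for KRT19 the main transcript KRT19-201 held 96.5% to 97.9%.

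**Figure D4:**
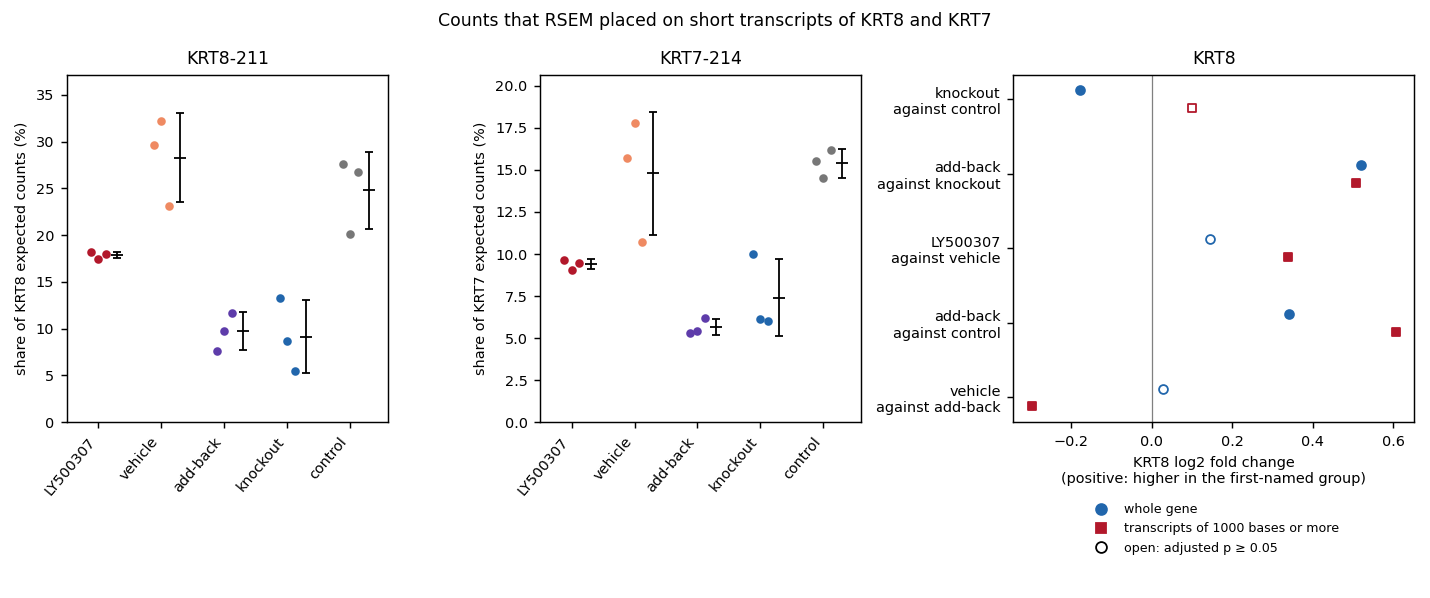
Left and middle, share of the expected counts of KRT8 on KRT8-211 and of KRT7 on KRT7-214 (vertical axes, percent) in each library, with the mean and SD of 3 libraries in black. Right, log2 fold change of KRT8 in the 5 comparisons over the whole gene (circles) and over transcripts of at least 1000 bases (squares), filled where the adjusted p was under 0.05. Knockout against control is -0.18 for the whole gene and 0.10 for the longer transcripts.

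KRT15 (ENSG00000171346, GRCh38 chr17:41513743-41522529, minus strand) encodes a type I keratin of basal keratinocytes that is also used as a marker of epithelial progenitor cells. It had 68.0, 72.5 and 70.9 CPM with LY500307, 57.5, 52.8 and 58.3 CPM with vehicle, 17.7, 18.2 and 15.2 CPM in add-back cells, 33.3, 32.5 and 32.2 CPM in knockout cells and 8.64, 8.64 and 8.28 CPM in control cells. No 2 groups overlapped. The change was 3.84-fold in knockout against control (log2 1.94 ± 0.08, adjusted p = 1.95e-13), and add-back cells had 0.524 times the knockout level (log2 -0.93 ± 0.06, adjusted p = 4.05e-09), still 2.01-fold that of control cells (log2 1.01 ± 0.08, adjusted p = 1.00e-08). Vehicle libraries were 3.28-fold above add-back libraries (log2 1.71 ± 0.06, adjusted p = 3.08e-14), so the low-serum medium with DMSO went with a larger KRT15 difference than the 1.26-fold rise with LY500307 within that medium (log2 0.33 ± 0.05, adjusted p = 0.00112). These values share the vehicle libraries, and the difference between them was not tested. ESR2 RNA was also higher in vehicle than in add-back libraries (45.2 and 32.8 CPM on average), and its part in the KRT15 difference was not tested. All 5 calls of KRT15 were kept under each alternative that gave a value.
Reads of KRT15 were spread over several annotated transcripts. KRT15-201, of 5237 bases, held 56.7% ± 2.69 of the counts with LY500307, 50.3% ± 3.13 with vehicle, 26.8% ± 4.97 in add-back, 51.5% ± 6.02 in knockout and 30.0% ± 10.0 in control cells. KRT15-202, of 3758 bases, held 14.9% ± 1.36, 17.3% ± 1.29, 27.5% ± 1.15, 13.2% ± 2.10 and 25.5% ± 3.14 in the same groups. KRT15-201 thus held the larger share in the LY500307, vehicle and knockout groups, the 3 groups with the higher KRT15 level, and add-back and control libraries overlapped.

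KRT81 (ENSG00000205426, GRCh38 chr12:52285913-52291534, minus strand), the hair keratin, spanned a wide range. It had 42.6, 43.9 and 35.5 CPM with LY500307, 33.8, 34.7 and 38.4 CPM with vehicle, 87.9, 93.6 and 102 CPM in add-back cells, 236, 279 and 276 CPM in knockout cells and 102, 99.7 and 99.0 CPM in control cells. Knockout libraries lay above all others, add-back libraries overlapped control libraries, and LY500307 libraries overlapped vehicle libraries. The change was 2.63-fold in knockout against control (log2 1.40 ± 0.07, adjusted p = 8.05e-12), add-back cells had 0.358 times the knockout level (log2 -1.48 ± 0.07, adjusted p = 2.74e-11) and vehicle libraries 0.376 times the add-back level (log2 -1.41 ± 0.08, adjusted p = 3.05e-11). It was -0.09 ± 0.07 on the log2 scale in add-back against control (adjusted p = 0.357) and 0.19 ± 0.08 in LY500307 against vehicle (adjusted p = 0.187). With the GC content and length offsets add-back against control became a call at -0.53 (adjusted p = 6.38e-07), and vehicle against add-back was -0.93 (adjusted p = 6.98e-10). LY500307 against vehicle was called without LY500307 replicate 3 (0.30, adjusted p = 0.0458) and without a filter on low counts (0.22, adjusted p = 0.00271), and was -0.03 with the offsets.
KRT86, its near copy, is uncertain beside it. The transcripts KRT81-201 and KRT86 were identical at 96.6% of 1325 aligned bases, and the annotated KRT86 gene spans KRT81 on the opposite strand, so reads may have been split between them. KRT86 had 1.79 ± 0.293 CPM with LY500307, 1.52 ± 0.281 with vehicle, 3.44 ± 0.348 in add-back, 5.70 ± 0.792 in knockout and 1.80 ± 0.470 in control cells. It rose in knockout against control (log2 1.66 ± 0.20, adjusted p = 9.94e-07) and fell in add-back against knockout (log2 -0.73 ± 0.17, adjusted p = 0.00490).
KRT80 (ENSG00000167767, GRCh38 chr12:52168996-52192000, minus strand) had 76.2, 77.4 and 69.6 CPM with LY500307, 73.0, 74.9 and 83.3 CPM with vehicle, 66.2, 69.2 and 75.7 CPM in add-back cells, 92.6, 96.7 and 93.5 CPM in knockout cells and 94.9, 91.1 and 94.5 CPM in control cells. The 3 groups with exogenous ERβ overlapped one another and lay below knockout and control libraries, which also overlapped. Its log2 fold change was -0.42 ± 0.06 in add-back against knockout (adjusted p = 1.95e-05), -0.41 ± 0.06 in add-back against control (adjusted p = 6.43e-06), 0.01 ± 0.06 in knockout against control (adjusted p = 0.892), -0.05 ± 0.06 in LY500307 against vehicle (adjusted p = 0.683) and 0.13 ± 0.06 in vehicle against add-back (adjusted p = 0.0637). With the GC content and length offsets knockout against control became a call at -0.17 (adjusted p = 0.0117) and vehicle against add-back one at 0.26 (adjusted p = 0.000399), and the second was also a call without add-back replicate 3 (0.16, adjusted p = 0.0399).

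KRT4 and KRT10 were the other keratins above the level set for naming. KRT4, a type II keratin of non-keratinised stratified epithelia, had 124, 127 and 131 CPM with LY500307, 157, 151 and 146 CPM with vehicle, 144, 164 and 168 CPM in add-back cells, 106, 104 and 105 CPM in knockout cells and 338, 319 and 310 CPM in control cells. Control libraries were far above the rest. It fell in knockout against control (log2 -1.62 ± 0.05, adjusted p = 6.18e-15), rose in add-back against knockout (log2 0.60 ± 0.05, adjusted p = 5.38e-08) and fell in LY500307 against vehicle (log2 -0.25 ± 0.05, adjusted p = 0.00610). KRT10, a type I keratin of differentiating epidermis, rose in vehicle against add-back (30.3 ± 3.40 and 24.4 ± 1.61 CPM, log2 0.31 ± 0.09, adjusted p = 0.00660).

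Proteins that tie keratin filaments to cell junctions and the cytoskeleton were followed as a list of 11 genes, of which 10 were tested. In knockout against control, where 46.0% of all genes were called, 6 were higher and 3 lower, with DST (dystonin, a plakin linker) at 347 ± 6.75 and 593 ± 21.8 CPM (log2 -0.77, adjusted p = 3.04e-12), DSP (desmoplakin) at 261 ± 3.02 and 351 ± 7.33 CPM (log2 -0.43, adjusted p = 4.77e-10) and JUP (plakoglobin) at 195 ± 4.10 and 132 ± 8.71 CPM (log2 0.57, adjusted p = 1.30e-07). In add-back against knockout (19.6% of all genes called) 3 were higher, namely DSP at 336 ± 2.54 and 261 ± 3.02 CPM, DST at 413 ± 7.56 and 347 ± 6.75 CPM and the plakophilin PKP2 at 44.5 ± 1.39 and 36.5 ± 1.53 CPM. In these comparisons DSP, DST and PKP2 moved in the same direction as KRT18 and the whole-gene count of KRT8. The 6 linker genes higher in knockout against control moved in the other direction there. The fall of KRT8 there was not kept over transcripts of at least 1000 bases. With LY500307 against vehicle (7.12%) 3 were higher and 1 lower, among them EVPL, an envelope plakin (log2 0.36, adjusted p = 0.0106), PKP3 (log2 0.40, adjusted p = 0.0137) and DST (log2 -0.14, adjusted p = 0.0228). In add-back against control (45.8%) 5 were higher and 1 lower, and PLEC, which encodes the linker plectin, had 877 ± 55.2 and 445 ± 44.4 CPM (log2 0.98, adjusted p = 6.43e-07). In vehicle against add-back (48.1%) 2 were higher and 5 lower, with DSP at 503 ± 13.5 and 336 ± 2.54 CPM and EPPK1 (epiplakin) at 34.9 ± 6.35 and 80.0 ± 7.35 CPM.
Of 7 other intermediate filament genes 5 were tested. SYNM, which encodes synemin, had 38.2 ± 0.582 and 22.9 ± 1.28 CPM in knockout and control cells (log2 0.74, adjusted p = 4.04e-09) and 28.3 ± 0.541 CPM in add-back cells, a fall from the knockout level (log2 -0.43, adjusted p = 1.28e-05). The list had 4 higher in knockout against control (46.0% of all genes called), 1 lower in add-back against knockout (19.6%), and 2 higher in LY500307 against vehicle (7.12%), where LMNA (lamin A/C) had 144 ± 3.43 and 115 ± 13.2 CPM (log2 0.33, adjusted p = 0.00544). It had 4 higher in add-back against control (45.8%), and 2 higher and 2 lower in vehicle against add-back (48.1%). VIM (vimentin), the mesenchymal filament gene, averaged at most 0.341 CPM, in vehicle libraries, and 0.0238 CPM in control libraries.

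The wider luminal marker list of 20 genes, all tested, had 11 higher and 4 lower in knockout against control (46.0% of all genes called), with a median log2 fold change of 0.35 against -0.01 over all genes. CD24, a surface marker of luminal cells, had 523 ± 12.3 and 282 ± 19.5 CPM (log2 0.89, adjusted p = 7.45e-11). PROM1 (log2 2.23, adjusted p = 8.84e-10) and the transcription factor GATA3 (log2 0.80, adjusted p = 2.46e-08) were also higher. The 4 called lower were EPCAM (log2 -0.17), MUC1 (log2 -0.60), CDH1 (log2 -0.29) and ELF5 (log2 -0.44). In add-back against knockout (19.6%) the list had 5 higher and 5 lower, with CD24 at 348 ± 28.2 and 523 ± 12.3 CPM (log2 -0.59, adjusted p = 1.17e-07) and AGR2, a secretory-pathway disulfide isomerase, at 298 ± 9.16 and 239 ± 7.22 CPM (log2 0.32, adjusted p = 4.12e-06). It had 2 higher and 1 lower in LY500307 against vehicle (7.12%), 14 and 3 in add-back against control (45.8%) and 10 and 8 in vehicle against add-back (48.1%). The transcription factor XBP1 rose with LY500307 (486 ± 12.3 and 425 ± 8.19 CPM, log2 0.19, adjusted p = 0.00584). The median log2 fold change of the list in LY500307 against vehicle was -0.03, against -0.02 over all genes.
Of 20 further basal markers 14 were tested. KRT14 averaged 0 CPM in all groups, KRT6A and KRT6B at most 0.296 CPM, and TP63, the transcription factor of basal cells, from 2.28 CPM in vehicle libraries down to 0.217 CPM in control libraries. The list had 3 higher and 3 lower of 14 in knockout against control, near the 46.0% of all genes called. Higher, as KRT15 was, were TP63 (0.628 ± 0.207 and 0.217 ± 0.207 CPM, log2 1.57 ± 0.47, adjusted p = 0.01 with edgeR), CDH3 (log2 0.45) and SFN (log2 0.39). The control level of TP63 was near that of 3 counts in a control library (0.190 to 0.227 CPM). Of the luminal markers 11 were also higher there, and 4 lower. Lower were CAV1 (caveolin-1) at 19.0 ± 0.231 and 38.1 ± 1.28 CPM (log2 -1.0, adjusted p = 1.93e-10), LAMB3 (log2 -1.01) and EGFR (log2 -0.30). The list had 3 higher and 2 lower in add-back against knockout (19.6% of all genes), 2 higher in LY500307 against vehicle (7.12%), 5 and 5 in add-back against control (45.8%), and 8 and 2 in vehicle against add-back (48.1%). In vehicle against add-back, where KRT15 rose, the list had a median log2 fold change of 0.61, against 0.01 over all genes. CAV1 rose there (log2 1.53, adjusted p = 1.02e-13) and the laminin chain gene LAMA3 fell (log2 -1.78, adjusted p = 2.94e-16). Beside that comparison, the 8 markers of other cell types summed to 18.4 to 18.7 CPM in vehicle libraries and 7.86 to 8.78 CPM in add-back libraries, with CD68 at 6.10 and 0.709 CPM and VWF at 8.74 and 2.81 CPM. In LY500307 libraries the sum was 19.6 to 21.0 CPM. Their part in the results was not tested. PDGFRB averaged 0 CPM in vehicle and add-back libraries, and CD3E, PECAM1, DCN and PDGFRB were below 0.5 CPM in every library.

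The neighbours of the members were counted as well. In the stretch of the type II cluster on chromosome 12, 10 tested protein-coding genes that are not keratins had 3 higher and 2 lower calls in knockout against control, near the 46.0% of all genes called. Their median log2 fold change in add-back against knockout, where KRT8 rose and KRT81 and KRT80 fell, was 0.09 against -0.01 over all genes. In the stretch of the type I cluster on chromosome 17, 9 such genes had 5 higher and 1 lower in knockout against control, where 23.4% and 22.6% of all genes were, with a median log2 fold change of 0.33 against -0.01 over all genes, and 1 of each in add-back against knockout, where 10.4% and 9.19% were. In LY500307 against vehicle, where KRT19 and KRT15 rose, 3 of the 9 were higher and 0 lower, where 4.77% and 2.35% of all genes were. Their median was 0.10, against -0.02 over all genes. Of the 10 on chromosome 12, 0 were called there.
Among all protein-coding genes tested, the profiles over the 5 group means nearest to KRT19 were those of SLC16A11 and DNAJC4, with root mean square differences of 0.05 and 0.08 on the centred log2 CPM scale. Those nearest to KRT15 were EPHA4 (0.19) and LCN2 (0.19), and those nearest to KRT81 were TERT (0.15) and SLC66A1L (0.26). KRT7, KRT8, KRT18 and KRT80 spanned less than 1 log2 unit over the groups and were not matched.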

How the data were processed

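Per the submitters' processing notes, the tools were FastQC, Trim Galore, GSNAP and RSEM, and the genome build was GRCh38. Versions, annotation release and the use of strand in counting are not given in the sources used here. The authors deposited a gene table and a transcript table, both with expected counts from RSEM that were not normalised. They were rounded to whole numbers here. Positions, GC content and transcript lengths came from GENCODE 29, and TPM was computed from the transcript table, of which 94.7% to 95.3% of counts had a length. Identity between transcripts came from blastn 2.17.0.

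Low counts were removed by filterByExpr, leaving 19516 genes, which were scaled by TMM and fitted with edgeR 4.0.16 (R 4.3.3) in 1 model of group means over 15 libraries. The two-sided quasi-likelihood test was adjusted with the Benjamini-Hochberg method over all genes, and a gene was called at an adjusted p under 0.05. All libraries entered, at 12614074 to 19390378 expected counts. Replicates in every group differed by more than counting error (chi-square per degree of freedom 2.11 to 5.10). Alternatives were RLE and upper-quartile factors, DESeq2 1.42.0, limma-voom (limma 3.58.1), no filter, a CPM of at least 1 in 3 libraries, only the libraries compared, the replicate number as a block, GC content and length offsets, added pseudogene counts and leaving out each library.

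The members and gene lists were chosen with earlier results of these data known. Named beside the members were ESR2, tested keratins whose mean log2 CPM reached 1, and up to 3 genes of smallest p per list and comparison, of which the text gives a part.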

Additional observations from a re-analysis of the deposited data

How the results depend on the processing

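Of 595 values of a member under an alternative, 546 kept their direction and their side of the threshold, all of KRT15 among them. Where a value changed, the cause was not tested. The 3 untested members had too few reads for a test, with 0 for KRT5, 1 for KRT17 and 38 for KRT23 over all libraries. The GC content and length offsets gave -0.0441 for KRT7 and -0.1655 for KRT80 in knockout against control, -0.0648 for KRT7 in add-back against control, -0.0144 for KRT7 and -0.0331 for KRT81 in LY500307 against vehicle, and 0.0701 for KRT7 and 0.3939 for KRT19 in vehicle against add-back. Transcripts of at least 1000 bases, chosen after seeing the data, gave 0.0998 for KRT8 in knockout against control, 0.0243 for KRT7 in add-back against knockout and -0.2986 for KRT8 in vehicle against add-back. All other reversals were of values near 0 that were not called. KRT7 in add-back against knockout was 0.0035 with RLE factors, 0.0107 with DESeq2, 0.0183 with no filter and -0.0461 to 0.0356 without one library. KRT19 there was -0.0083 with upper-quartile factors. KRT8 in vehicle against add-back was -0.0145 with upper-quartile factors, -0.0039 with no filter, -0.0038 with the CPM filter, -0.0041 in 6 libraries and -0.0521 to 0.0297 without one library. In LY500307 against vehicle KRT18 was 0.0056 with no filter and -0.0273 to 0.0110 without one library, and KRT80 was -0.0740 to 0.0279. KRT80 in knockout against control was -0.0094 to 0.0289 without one library.

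Without a filter 5 keratins were called in LY500307 against vehicle, against 3. All genes called there numbered 302 with the offsets and 299 to 1844 without one library, against 1389, and were 299 and 403 without vehicle replicate 2 and 1, and 586 and 487 without LY500307 replicate 1 and 2. Keratins called were 2 to 4 there without one library. KRT8 in LY500307 against vehicle was called under 8 of 17 alternatives, among them DESeq2 (0.15, adjusted p = 0.0237) and limma-voom (0.15, adjusted p = 0.0310). No pairing by replicate number was seen (same-numbered libraries of different groups had correlations of -0.0952 to 0.0603, with 0 of 30 over 0.1). Differently numbered libraries had -0.0699 to 0.0976. Correlations over all tested genes could miss a pairing that touches few genes. With the replicate block 6 keratins were called in knockout against control, 5 in add-back against knockout, 3 in LY500307 against vehicle, 6 in add-back against control and 4 in vehicle against add-back, the same counts as without it.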
